A study of Mus musculus with 9 samples.

Results

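Complement genes were followed in skin from the backs of C57BL/6J mice aged 8 weeks, all of which had received 5% imiquimod cream daily for 7 days. The genes were taken by symbol from a list of 9 components, receptors and regulators (C3, C4b, Cfb, Cfp, C1qa, C3ar1, C5ar1, Cd55 and Cd55b), with 1 array feature per symbol. Of the 9 symbols, 8 named a feature, out of 19505 genes in all, and C3 was not analysed here. In the stretch group (n = 5 arrays) a plastic traction device glued to the depilated skin had been extended by 10 mm before the cream was started, and in the no-stretch group (n = 4 arrays) the skin was not extended. The protocol does not say whether non-stretched skin carried the glued device, so stretch and the device cannot be told apart. No array without imiquimod was used, and whether the arrays stem from different mice is not stated, so p-values reflect a spread between arrays that may be partly technical.

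Complement is a cascade of plasma and tissue proteins that coats surfaces with fragments of C3 and C4, releases the small peptides C3a and C5a, and can end in a pore of terminal components in the target membrane. The classical route starts when C1q binds antibody or debris, and the alternative route amplifies C3 cleavage with factor B and properdin. Host cells limit it with surface proteins such as CD55, which takes apart the enzymes that cleave C3. The liver makes most plasma complement, while macrophages, neutrophils, fibroblasts and keratinocytes make components locally in skin.

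Stretched skin had lower values of both decay-accelerating factor genes, Cd55 and Cd55b, and of these Cd55b passed the test. Cd55b fell 2.25-fold and Cd55 was 2.08-fold lower without passing. C4b was 1.64-fold lower and did not pass either. The other 5 genes, C1qa, Cfb, Cfp, C3ar1 and C5ar1, had higher means with stretch, by 1.18-fold to 1.63-fold, with overlapping groups and none past the threshold. The test was limma's moderated test on the deposited log2 values, with Benjamini-Hochberg adjustment over all 19505 genes at a threshold of 0.05. It found 1 of the 8 genes, where 0.246% of all genes passed in either direction and 0.164% passed as lower. Stretched and non-stretched arrays were fully separated for 2 of the 8, both lower, where this held for 4.54% of all genes and for 2.15% as lower. An unadjusted p under 0.05 was reached by 3 of the 8, against 13% of all genes.

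The arrays gave log2 values for 22206 features, with array medians of 5.81 to 5.86 with stretch and 5.87 to 5.99 without. The stretched medians thus all lay slightly below the non-stretched ones. With the array medians set equal, Cd55b had a log2 change of -1.13 (limma adjusted p = 0.030). The number of arrays limits the precision, and over all genes the standard errors of log2 changes had a median of 0.21. The skin markers Krt5 and Krt14, keratins of the basal epidermis, lay at the 99.7th and 99.97th percentiles of all genes, and 6 hepatocyte markers lay between the 17.8th and 44.4th. No-stretch replicate 3 resembled the rest least (median r = 0.975 across genes, against 0.980 to 0.987), and together with stretch replicate 1 it had the smallest array weights (0.58 and 0.55). No-stretch replicate 3 held the lowest non-stretched value of 5 of the 8 complement genes, and stretch replicate 4 the highest stretched value of 5. Without detection calls, it was not assessed whether low values lay above background.

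**Figure D1:**
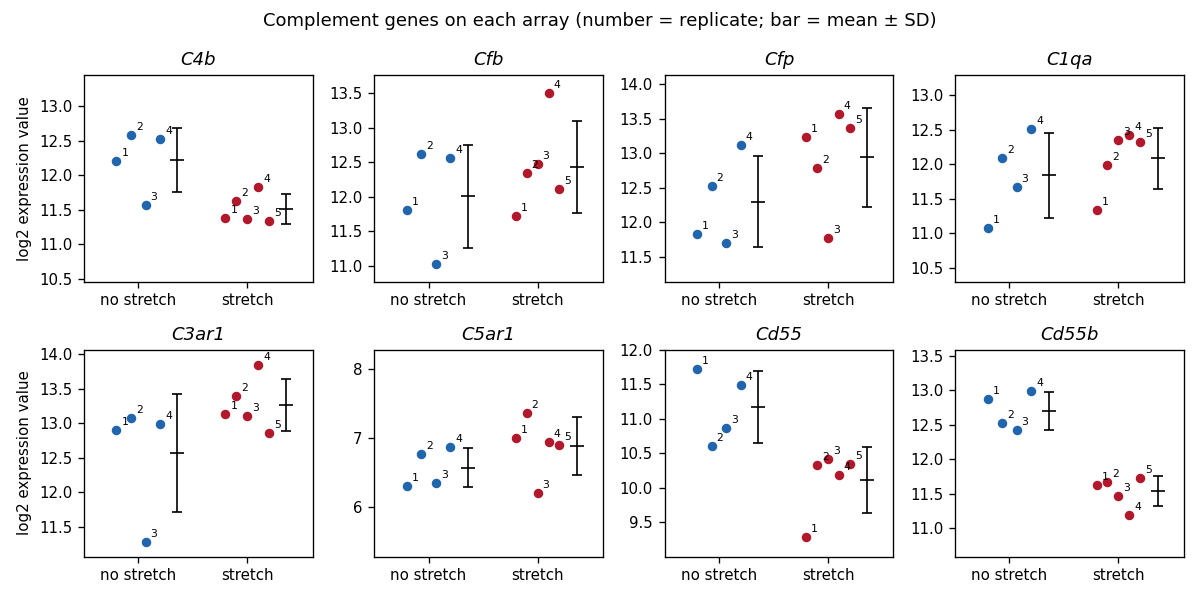
Log2 expression value of each of the 8 complement genes on every array, with numbers giving the replicate and the bar beside each group its mean ± SD (n = 4 no stretch, n = 5 stretch). Each panel spans the same 3 log2 units. The stretched arrays of Cd55 and Cd55b lie below all non-stretched arrays, whereas the groups overlap for the other 6 genes.

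Cd55 encodes decay-accelerating factor, a membrane-anchored protein that dissociates the C3 convertases on the cell's own surface. Cd55b is the second mouse copy of it, known in mice mainly from testis. In RefSeq GRCm38.p6 they are neighbouring genes on chromosome 1. They are shown by the 250 bases before their annotated starts, because these related copies are the members with the largest differences. Runs of 12 or more bases that both windows share are in capitals. The window of Cd55 is chr1:130462745-130462994 on the minus strand and that of Cd55b is chr1:130423044-130423293 on the minus strand, both printed 5′ to 3′ on the gene's strand.
Cd55: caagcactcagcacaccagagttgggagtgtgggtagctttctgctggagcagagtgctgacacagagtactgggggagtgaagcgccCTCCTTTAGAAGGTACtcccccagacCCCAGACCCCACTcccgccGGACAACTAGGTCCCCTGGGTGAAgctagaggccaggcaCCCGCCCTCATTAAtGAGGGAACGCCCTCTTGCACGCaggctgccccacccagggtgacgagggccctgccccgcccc
Cd55b: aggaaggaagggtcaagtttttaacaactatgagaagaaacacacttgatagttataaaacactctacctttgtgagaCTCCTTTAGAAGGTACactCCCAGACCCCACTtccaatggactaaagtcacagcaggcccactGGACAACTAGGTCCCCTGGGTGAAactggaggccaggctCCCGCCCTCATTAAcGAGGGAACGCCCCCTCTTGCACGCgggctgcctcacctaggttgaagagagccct

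The windows shared 6 such runs, the longest of 24 bases, and aligned with 61.9% identical columns. For comparison, either window aligned with that of the unrelated gene C7 gave 44.9% and 46.2%. Both windows hold a GC box (GGGCGG, either strand), which 32.7% of 32851 promoter windows of the same length also hold. The window of Cd55b holds TATAAA and CCAAT, present in 12.4% and 33.8% of windows, and that of Cd55 holds neither. Neither window holds an AP-1 motif (TGANTCA), a STAT motif (TTCNNNGAA), a C/EBP core (TTGCNNAA), a CRE (TGACGTCA) or an E-box (CACGTG). These motifs were searched on both strands, and a match or its absence describes only these letters.

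Cd55b was at 11.62, 11.67, 11.46, 11.20 and 11.74 (log2) in stretch replicates 1 to 5, and at 12.88, 12.53, 12.42 and 12.99 in no-stretch replicates 1 to 4. All 5 stretched arrays lay below all 4 non-stretched arrays, with a gap between the groups larger than the range within either. The means were 11.54 ± 0.22 (SD, n = 5) and 12.70 ± 0.27 (SD, n = 4), for a log2 change of -1.17 (standard error 0.18, 95% confidence interval -1.56 to -0.77) and limma adjusted p = 0.030. Its unadjusted p ranked 24th among all genes. The call rested on the full set of arrays: Cd55b passed in 2 of the 9 fits that left out an array, those without stretch replicate 1 or stretch replicate 3. In the other 7 its limma adjusted p lay between 0.053 and 0.117, the highest being without no-stretch replicate 1, while the log2 change stayed between -1.26 and -1.07 over all 9 fits. In bulk skin, fewer cells that carry a transcript and less of the transcript per cell cannot be told apart.

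Cd55 was at 9.28, 10.34, 10.42, 10.19 and 10.34 with stretch and at 11.72, 10.60, 10.87 and 11.49 without. The groups did not overlap, but the highest stretched and the lowest non-stretched array were close, and stretch replicate 1 lay well under the rest. The log2 change was -1.06 (standard error 0.29, 95% confidence interval -1.69 to -0.42) with limma adjusted p = 0.157, and it was -0.85 without stretch replicate 1. The within-array difference Cd55 minus Cd55b averaged -1.42 ± 0.54 (SD, n = 5) in stretched and -1.53 ± 0.32 (SD, n = 4) in non-stretched skin. These differed by 0.11, with p = 0.738 in an exact two-sided permutation test over all assignments of the arrays to groups of 5 and 4, so unequal change of the pair was not detected. Although Cd55b is known mainly from testis, its feature lay at the 93.1st percentile of all genes and that of Cd55 at the 86.5th. Probe sequences were not used here, and how far the features of these related copies hybridise to each other's transcripts was not tested.

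C4b encodes complement C4, the component that C1s and the lectin-pathway proteases cleave to build the classical C3 convertase. It was at 11.37, 11.63, 11.36, 11.83 and 11.33 with stretch and at 12.20, 12.58, 11.56 and 12.53 without. The 5 stretched arrays were close together, 3 of the 4 non-stretched arrays lay above all of them, and no-stretch replicate 3 lay among them. The log2 change was -0.71 (standard error 0.22, 95% confidence interval -1.20 to -0.22) with limma adjusted p = 0.213, and it was -0.93 without no-stretch replicate 3. C4a, the related mouse gene once known as sex-limited protein, had a log2 change of -0.57 (limma adjusted p = 0.404), and the array may not fully separate these similar copies.

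C1qa encodes the A chain of C1q, the recognition molecule of the classical pathway, which tissue macrophages make. Its values were 11.34, 11.99, 12.34, 12.42 and 12.32 with stretch and 11.07, 12.09, 11.67 and 12.51 without. Both groups spread over more than 1 log2 unit and overlapped throughout. The log2 change was 0.24 (95% confidence interval -0.42 to 0.91, limma adjusted p = 0.777), and it was -0.01 without no-stretch replicate 1. The other 2 chains, C1qb and C1qc, which lie beside C1qa on chromosome 4, had log2 changes of 0.62 and 0.40 (limma adjusted p = 0.397 and 0.573). The values of C1qb and C1qc also overlapped between the groups.

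Cfb encodes factor B, the catalytic subunit of the alternative C3 convertase. It was at 11.73, 12.35, 12.48, 13.51 and 12.11 with stretch and at 11.81, 12.63, 11.03 and 12.56 without. Stretch replicate 4 was the highest array and no-stretch replicate 3 the lowest, and the remaining arrays of the groups were mixed. The log2 change was 0.43 (95% confidence interval -0.42 to 1.28, limma adjusted p = 0.677). It was 0.10 without no-stretch replicate 3 and 0.16 without stretch replicate 4.

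Cfp encodes properdin, which stabilises the alternative convertase and is released mainly by neutrophils and other myeloid cells. Its values were 13.23, 12.78, 11.77, 13.57 and 13.36 with stretch and 11.83, 12.52, 11.70 and 13.13 without. Of the stretched arrays 3 lay above all non-stretched ones, and stretch replicate 3 lay with the lowest. The log2 change was 0.65 (95% confidence interval -0.19 to 1.49, limma adjusted p = 0.511), and 0.94 without stretch replicate 3. The within-array difference Cfb minus Cfp differed between the groups by -0.22 (exact two-sided permutation p = 0.659).

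C3ar1 encodes the receptor for C3a, a G protein-coupled receptor of myeloid cells. It was at 13.13, 13.39, 13.11, 13.85 and 12.85 with stretch and at 12.90, 13.08, 11.28 and 12.99 without. Of the stretched arrays 4 lay above all non-stretched ones, by small margins in most, and no-stretch replicate 3 lay far below all others. The log2 change of 0.70 (95% confidence interval -0.07 to 1.48, limma adjusted p = 0.428) was 0.28 without no-stretch replicate 3.

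C5ar1 encodes the receptor for C5a, a chemoattractant receptor of neutrophils and macrophages. Its values were 7.00, 7.36, 6.20, 6.95 and 6.89 with stretch and 6.30, 6.76, 6.35 and 6.87 without. The stretched arrays held both the highest and the lowest value. The log2 change was 0.31 (95% confidence interval -0.20 to 0.82, limma adjusted p = 0.608), and it was 0.19 without stretch replicate 2 and 0.48 without stretch replicate 3. The within-array difference C3ar1 minus C5ar1 changed by 0.39, which was not past the threshold (exact two-sided permutation p = 0.397), and by 0.04 without no-stretch replicate 3. With these groups the smallest p these tests could give was 0.0079, and after Benjamini-Hochberg over the 3 pairs tested each adjusted p was 0.738. A planned pair of C3 with C4b could not be tested without a C3 value.

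**Figure D2:**
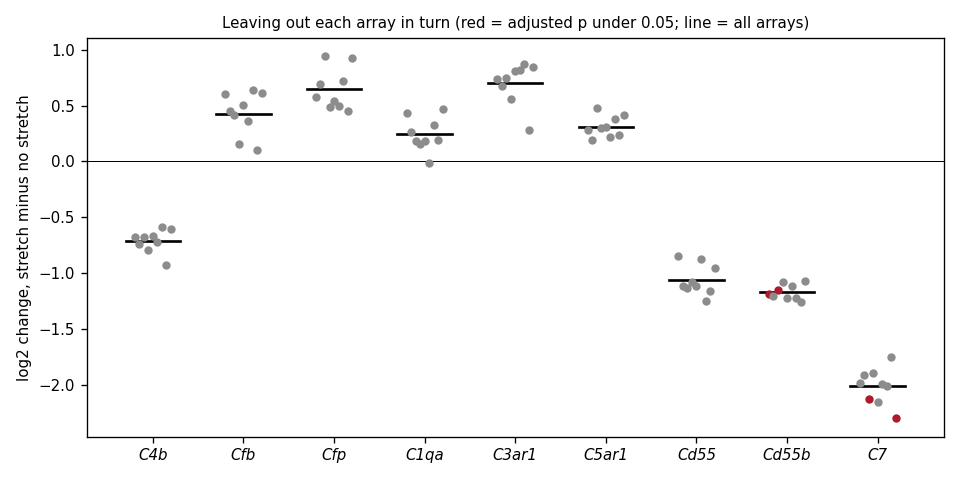
Log2 change (stretch minus no stretch) of the 8 genes and of C7 when each of the 9 arrays was left out in turn (points) and with all arrays (line). Points in red have a limma adjusted p under 0.05. The points of Cd55b lie between -1.26 and -1.07 with 2 of 9 in red, and those of C3ar1 reach down to 0.28.

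Beyond these 8 genes, 43 further complement genes were measured, from lists of the pathway's parts. Of the 43, 18 had higher and 25 lower means with stretch, with a median log2 change of -0.06, against -0.003 for all genes. Of all genes, 49.6% had higher and 50.4% lower means. C7 was the single one of the 43 past the threshold, which 0.246% of all genes passed. An unadjusted p under 0.05 was reached by 4 of the 43, against 13% of all genes. The groups did not overlap for 2 of the 43, against 4.54% of all genes. C7, a terminal component that anchors the forming membrane attack complex in the lipid bilayer, fell 4.03-fold. It was at 6.03, 5.74, 6.57, 5.65 and 6.69 with stretch and at 8.20, 8.17, 8.94 and 7.28 without. The groups did not overlap, and the log2 change was -2.01 (standard error 0.32, limma adjusted p = 0.033). C7 passed in 2 of the 9 fits that left out an array, those without stretch replicate 3 or no-stretch replicate 4, and its limma adjusted p reached 0.124 without no-stretch replicate 1.

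C7 is shown by the 250 bases before its annotated start, at chr15:5063774-5064023 on the minus strand of RefSeq GRCm38.p6, because it fell with the Cd55 pair but stems from an unrelated locus. The capitals mark a STAT motif (TTCNNNGAA), which 7.02% of the promoter windows hold, and at the 3′ end a TATAAA on the opposite strand.
C7: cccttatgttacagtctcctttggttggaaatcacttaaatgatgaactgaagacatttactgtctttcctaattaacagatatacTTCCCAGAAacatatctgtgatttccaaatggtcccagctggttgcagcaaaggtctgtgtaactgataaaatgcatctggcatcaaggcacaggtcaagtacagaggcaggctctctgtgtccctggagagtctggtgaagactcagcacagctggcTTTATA

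The other terminal components had log2 changes between -0.15 and 0.25, from C8a to Hc, the mouse gene for C5. None of these 6 passed (limma adjusted p of 0.649 or more). Hc lay at the 4.9th percentile of all genes and C9 at the 29.6th. In the classical pathway list 0 of 10 genes passed with limma. Against 13% of all genes, 2 of the 10 had an unadjusted p under 0.05, both lower. These were C4b and the protease gene C1ra, which had a log2 change of -0.60 (limma adjusted p = 0.308). In the lectin pathway list 0 of 9 passed and 0 had an unadjusted p under 0.05. Its member of smallest p was Masp1, a serine protease of the lectin pathway, with a log2 change of -0.60 (limma adjusted p = 0.540). Colec12, a membrane collectin, and Fcna, a ficolin, had log2 changes of 0.38 and 0.34.

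Among 9 receptor genes, C3ar1 and C5ar1 included, 8 had higher means, against 49.6% of all genes, and none passed with limma. The mean over the receptor list overlapped between the groups, at 7.38 to 8.29 with stretch and 6.90 to 7.62 without. An unadjusted p under 0.05 was reached by 1, Itgb2, against 13% of all genes. Itgb2, the beta chain of complement receptors 3 and 4, had a mean difference of 1.02 (log2; 95% confidence interval 0.09 to 1.95, limma adjusted p = 0.340). Its partner Itgam, the CD11b chain of complement receptor 3, had a log2 change of 0.92, and Cd93, a C1q-binding glycoprotein of myeloid and endothelial cells, of 0.97 (limma adjusted p = 0.440 and 0.397). The groups overlapped for Itgb2, Itgam and Cd93. Itgb2 and Itgam were highest on stretch replicate 4 (12.11 and 15.37) and lowest on no-stretch replicate 3 (8.64 and 11.89).

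Of the 6 membrane regulators 1 passed, against 0.246% of all genes, and this was Cd55b, already counted among the 8. Lower means were seen for 5 of the 6, Cd55 and Cd55b included, against 50.4% of all genes. Cr1l, which encodes Crry, the widely expressed rodent regulator of C3 convertases, differed by 0.11 (log2; 95% confidence interval -0.27 to 0.49). Cd46 had a log2 change of -0.10 (-0.60 to 0.41), and Cd59a, which blocks assembly of the membrane attack complex, of -0.36 (-0.96 to 0.24). Of 8 soluble regulators 0 passed with limma, and 1, Vtn, had an unadjusted p under 0.05, against 13% of all genes. Vtn, vitronectin, had a log2 change of -0.58 (limma adjusted p = 0.243), with no overlap between the groups. Serping1, the C1 inhibitor, had a log2 change of -0.62, with limma adjusted p = 0.547. Cpn2, a carboxypeptidase N subunit, had a log2 change of 0.32 and limma adjusted p = 0.569.

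**Figure D3:**
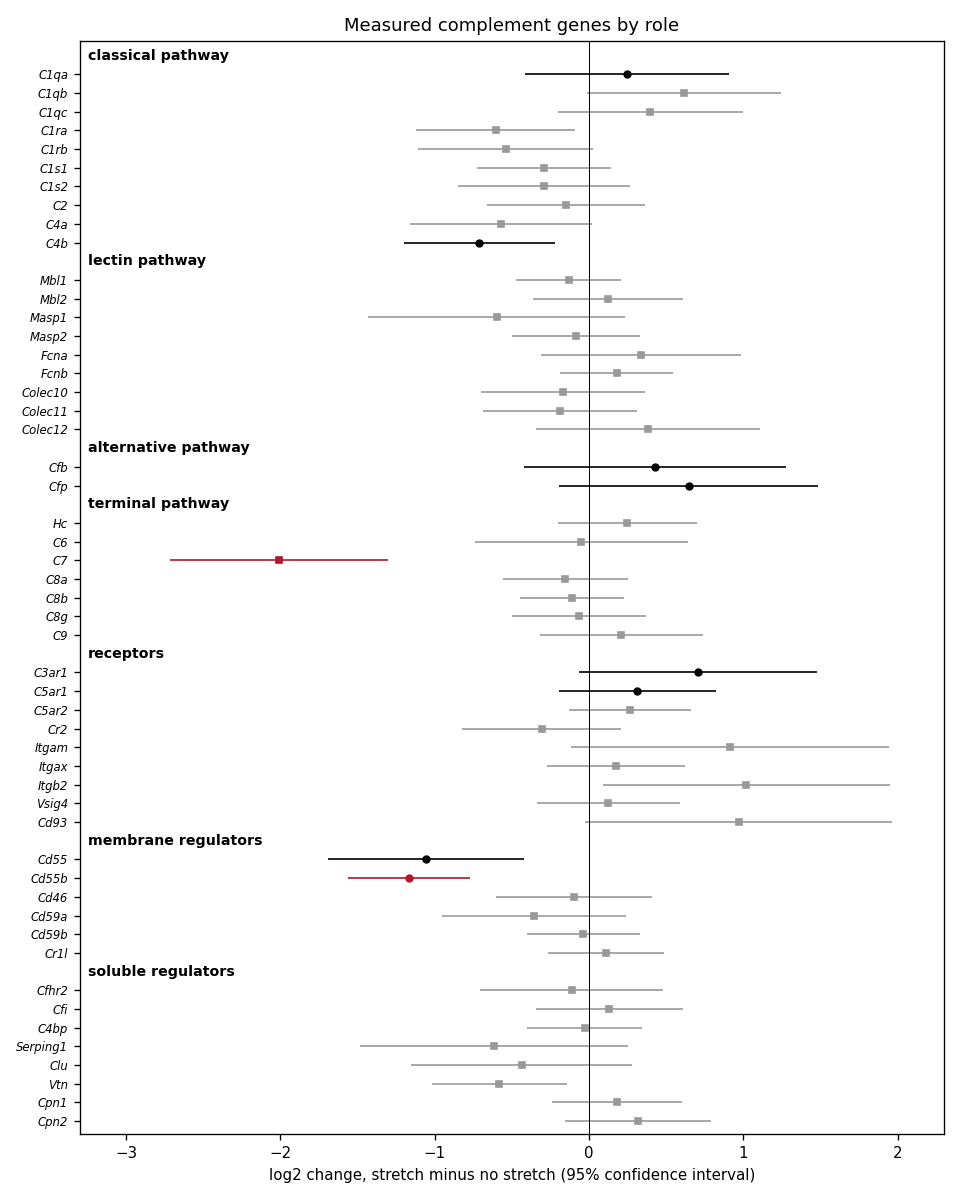
Log2 change (stretch minus no stretch) with 95% confidence interval for the 51 measured complement genes, grouped by role. Circles are the 8 genes chosen by symbol and squares the other 43, and red marks a limma adjusted p under 0.05 (C7 and Cd55b, both lower).

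Markers of other cell types were read on the same arrays, as means of log2 values over each list. The counts of direction below stand against 49.6% of all genes with higher and 50.4% with lower means. All 7 measured fibroblast markers, among them Col1a2, Lum and Dpt, were lower in mean with stretch, with a median log2 change of -0.82. Of the 7, 1 (Dpt) passed the threshold, against 0.246% of all genes, and 5 had an unadjusted p under 0.05, against 13%. The groups did not overlap for 4 of the 7, against 4.54% of all genes. The fibroblast list mean was 14.80 to 15.12 on stretched and 15.80 to 16.08 on non-stretched arrays, without overlap, as for Cd55b, Cd55 and C7. The mast cell list mean (5.51 to 5.84 with stretch and 5.93 to 6.12 without) and the adipocyte list mean (9.19 to 10.16 and 10.17 to 10.81) were also lower without overlap. Of 7 mast cell markers 5 had lower and 2 higher means, with a median log2 change of -0.11. The largest mast cell changes were those of Cpa3 (-1.35) and Mcpt4 (-0.91). Of 6 adipocyte markers 5 had lower means and 1 higher, with a median of -0.71. All 6 differentiated keratinocyte markers had lower means, with a median log2 change of -0.89. An unadjusted p under 0.05 was reached by 4 of these 6, against 13% of all genes. Dendritic and Langerhans cell markers had lower means in 8 of 9, with a median of -0.54, and 5 had an unadjusted p under 0.05. None of either list passed the threshold, and both list means overlapped between the groups. All 9 measured neutrophil markers had higher means, with a median log2 change of 1.74, and none passed the threshold. An unadjusted p under 0.05 was reached by 7 of these 9, against 13% of all genes. The groups did not overlap for 4 of the 9, against 4.54% of all genes. The neutrophil list mean was 11.30 to 12.62 on stretched and 9.64 to 10.67 on non-stretched arrays, also without overlap. Of 9 macrophage markers 7 had higher means, and the list mean was 9.60 to 10.98 with stretch and 9.25 to 10.43 without. No-stretch replicate 3 was the lowest array and stretch replicate 4 the highest for the macrophage, neutrophil, monocyte and endothelial lists, as for C3ar1, Cfb and Cfp. The part of the content of any of these cell types in the values of the complement genes was not tested. The hepatocyte list mean lay between 3.79 and 4.47 on all 9 arrays.

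**Figure D4:**
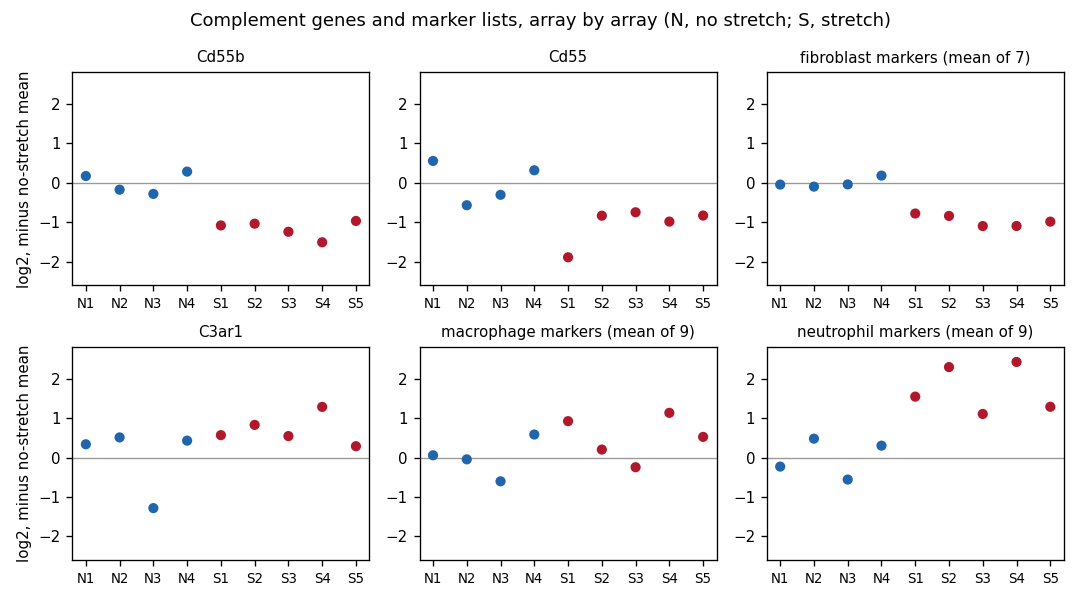
Cd55b, Cd55 and C3ar1 and the means of 3 marker lists on each array, as log2 values minus the no-stretch mean (N, no-stretch arrays in blue; S, stretch arrays in red; numbers are replicates). Cd55b, Cd55 and the fibroblast list are lower on all 5 stretched arrays, the neutrophil list is higher on all 5, and C3ar1, the macrophage list and the neutrophil list are all lowest on no-stretch replicate 3.

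The pattern within groups was compared with that of all other genes by the Pearson correlation of deviations from the group means over the 9 arrays. Genes with only a provisional symbol (predicted genes and clones) were passed over when the most similar genes were listed. The genes most like Cd55b were Lzic, Ngef and Gsto1 (r = 0.965, 0.962 and 0.944), and those most like Cd55 were Golga5, Pter and Rfc1 (0.986, 0.943 and 0.942). Cd55 and Cd55b themselves had r = 0.389. C4b was most like B4galt5, Fam71b and C3ar1 (0.986, 0.964 and 0.960), and C3ar1 ranked 5th for C4b when all genes were counted. The means of C4b and C3ar1 differed between the groups in opposite directions. C3ar1 was most like Pacs1, Rnf6 and Slc10a7 (0.986, 0.977 and 0.968), and Cfb like Zzz3, Arhgap4 and Ptpre (0.965, 0.962 and 0.959). Cfp was most like Arpp21, Slco1a4 and Tspyl3 (0.973, 0.971 and 0.963). C1qa was most like Aqp11, Dock6 and Saraf (0.992, 0.975 and 0.941), and C5ar1 like Hpca, Nlrp12 and Kcnmb1 (0.963, 0.960 and 0.946). With 9 arrays and 19505 genes such values are common: the highest r of a gene with any other gene had a median of 0.972 over all genes.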

How the data were processed

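The deposited table held log2 expression values per array feature, for which the submitters' processing notes name RMA and Transcriptome Analysis Console without versions. RMA can compress low values, so changes of dim genes may be understated, which was not tested. The genome build used and any filter were not given in the sources used here. Features were named from the platform annotation (19572 with 1 symbol, 2634 unnamed), and the feature of highest mean stood for a gene. Stretch and no stretch were compared with limma 3.58.1 in R 4.3.3 (lmFit, eBayes, no covariate), adjusted over all genes. Within-array differences of 3 pairs were tested by exact permutation. Fold changes were computed from log2 changes. Promoter windows came from RefSeq GRCm38.p6, whose table held 5 of the 8 genes, and were aligned with Biopython 1.88. The fit was also run on simulated data with independent normal noise for each gene and no unusual arrays. That run does not bear on how the calls depend on single arrays.

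The genes and lists were chosen with earlier results of these data known. Named genes are the 8, complement genes past the threshold, and up to 3 further genes of smallest p per list. The 3 most similar genes of each of the 8 were added, passing over predicted genes and clones with only a provisional symbol. C1qc, C8a and the keratins Krt5 and Krt14 fall outside this rule and were chosen after their values were seen. Pathway lists held 56 genes, of which 51 were measured. Lists of other cell types whose changes are not described above had median log2 changes between -0.32 (T cells) and 0.69 (monocytes). Of the 8 monocyte markers 5 had higher and 3 lower means, and 1, Fn1, passed as lower, against 0.164% of all genes. No 2 arrays held identical values.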

Additional observations from a re-analysis of the deposited data

Results flagged for a closer look

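Of 52 groups of arrays checked (26 named complement genes in both groups), 8 held an array far from the others, where chance flags about 5% of such groups. C3ar1 was at 11.28 in no-stretch replicate 3, against 12.90 to 13.08 in the other non-stretched arrays, and Masp1 was at 6.93 in the same array, against 8.42 to 8.59. Cd55 was at 9.28 in stretch replicate 1, where the other stretched arrays lay between 10.19 and 10.42. In stretch replicate 4, Itgb2 was at 12.11 (the next highest stretched array at 10.66) and Hc at 3.57 (next 2.85). In stretch replicate 3, Cd93 was at 7.42 (the next lowest stretched array at 9.08) and Cr1l at 11.87 (next 12.23). Cd59a was at 8.27 in stretch replicate 5, with the next highest stretched array at 7.40.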

How the results depend on the processing

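Cd55b was lower under all 19 alternatives and passed in 11. Because its groups did not overlap, no omission of arrays could reverse its direction. Both filters, averaged features, all features and the trended and robust variance model left its values unchanged, at a log2 change of -1.17. Cd55b passed under both renormalizations, both filters on dim genes, averaged features and all features. It also passed with the trended and robust variance model, array weights and the replicate block. It failed in 7 of the 9 fits without an array (log2 change -1.26 to -1.07) and, in an omission chosen after seeing the data, without the 2 arrays of lowest weight together (-1.28), so that the number of the 8 genes past the threshold ranged from 0 to 1 over the fits without an array and was 0 in that omission. The other 7 kept their side of the threshold in every alternative run, and all but C1qa their direction: C1qa ranged from -0.0090 to 0.47 without single arrays. Cfb minus Cfp ranged from -0.52 to 0.030 and Cd55 minus Cd55b from -0.021 to 0.34 in the same fits.

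The number of all genes past the threshold was 48 and depended on the arrays and settings. It was 75 after quantile normalization, 105 and 103 with filters at the 25th percentile and the median, 157 with array weights, 15 without the 2 arrays of lowest weight, and 2 to 195 without single arrays. With the replicate number as a block 221 genes passed and Cd55b had a log2 change of -1.22 (limma adjusted p = 0.044). The replicate number was not taken to pair arrays, since deviations of same-numbered arrays correlated at -0.06, -0.02, 0.06 and 0.34, and 1 of the 4 stretched arrays sharing a number was closest to its own number. The number of arrays limits the precision of these values.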
